A study of Mus musculus with 14 samples.

Results

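The factors described here are 9 mouse transcription factors of the basic leucine zipper class, namely Fos, Fosb, Fosl1 and Fosl2 of the Fos family, Jun, Junb and Jund of the Jun family, and the small Maf factors Maff and Mafk. They were taken by gene name, with each probeset that the platform annotation assigns to 1 of these symbols. This gave 11 probesets out of 22626 tested, a single probeset for 7 genes and a pair each for Fosl1 and Jun. The cells were B16-F10, a mouse melanoma line, grown at 37°C in medium with 10% fetal bovine serum, and the RNA was hybridized to Affymetrix mouse arrays, 1 for each of 14 biological replicates. The 5 control cultures were untreated. The 3 Lipofectamine cultures were kept for 3 h with Lipofectamine, a cationic liposome carrier for DNA, in Opti-MEM without any plasmid, then for 30 min in serum medium. The 3 heat shock cultures were kept for 1 h at 42.5°C and recovered for 30 min at 37°C. The 3 benzyl alcohol cultures were given 40 mM of this membrane-fluidizing alcohol for 1 h at 37°C and recovered in fresh medium for 3 h according to the sample protocols, or for 30 min according to the series description. In the Lipofectamine arm the liposomes and the change of medium cannot be told apart, because the controls had neither, and in the benzyl alcohol arm the same holds for the alcohol, the fresh medium and the length of recovery.

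Fos proteins do not pair with each other but bind DNA as heterodimers with Jun proteins, and Jun proteins also form dimers among themselves. These dimers, known as AP-1, recognize the TPA response element TGANTCA and the related cyclic AMP response element (CRE). Small Maf proteins have no transactivation domain: their homodimers repress, while with NFE2L2 (NRF2) or its relatives they activate genes of glutathione and thiol metabolism through antioxidant response elements, and BACH1 and BACH2 compete for the same partners. Fos, Fosb, Jun and Junb are classical immediate early genes, transcribed within minutes of serum, growth factors or stress, and their mRNAs are short-lived because AU-rich elements recruit decay factors such as the products of Zfp36 and Zfp36l1.

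Upstream of the start sites of several of these genes stand short sequences that CREB and ATF factors, or AP-1 itself, are known to bind. Windows of 250 bases before and 50 bases after each annotated start were read from RefSeq on GRCm38.p6 for 8 of the 9 genes, in 10 windows because Maff has 3 starts, and searched on either strand for TGACNTCA (the CRE and the Jun-type variant of the AP-1 site), TGACG (a part of the CRE that CREB also binds), TGANTCA, GAANNTTC (a core of the heat shock element), TGACNNNGC (a core of the antioxidant response element) and the SRF-binding CArG box. The first of these includes TGACG where its variable base is G, and such a match is counted under both. The sequences below show 1 CRE-type match from each window that holds one, in the genes that passed a test in at least 1 comparison. Capitals mark the match, and each line runs 5′ to 3′ on the strand of the gene.
Fos, chr12:85473812-85473840, plus strand: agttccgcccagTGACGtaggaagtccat
Jun, chr4:95052249-95052278, minus strand: aagcctcggggTGACATCAtgggctatttt
Junb, chr8:84978838-84978866, minus strand: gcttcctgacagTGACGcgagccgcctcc
Maff start 2, chr15:79347480-79347509, plus strand: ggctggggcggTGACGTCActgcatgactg
Maff start 3, chr15:79348346-79348375, plus strand: ctggagccatgTGACATCAgtgtttgttcc
The first base of the match lay at -66 in Fos, -45 in Jun, -106 in Junb, and -29 and -45 in the windows of Maff starts 2 and 3. Fos had a further TGACG at -129 and the window of Maff start 3 had one at -122. A full TGACNTCA was found in 3 of the 10 windows, those of Jun and Maff starts 2 and 3, against 8.83% of 32851 windows of the same length over all genes. Counted by gene it was 2 of 8, against 10.0% of 27025 genes. The shorter TGACG was found in 6 of the 10 windows, those of Fos, Fosb, Junb, Mafk and both downstream starts of Maff, against 20.8%. Counted by gene it was 5 of 8, against 23.0%. GAANNTTC was present in the windows of Jun and Fosl2 (7.86% of all windows) and TGACNNNGC in those of Maff start 1 and Mafk (12.4%). TGANTCA (7.81%) and the CArG box (1.63%) matched 0 of the 10. The Jund window held no match to any of the motifs searched. A match describes these letters only and was not tested for binding, and a missing match says nothing of a site outside the window.

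**Figure D1:**
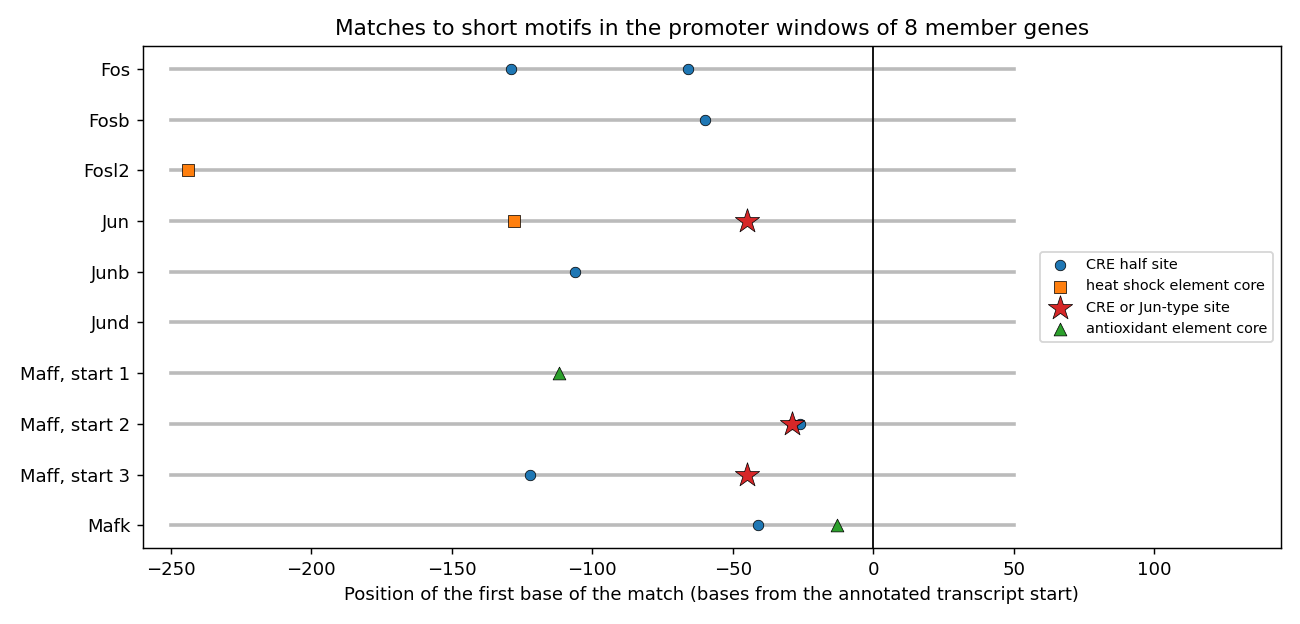
Matches to short motifs in the promoter windows of 8 of the 9 genes. The x axis gives the first base of each match relative to the annotated start (line at 0), grey bars are the windows searched, and symbols are the kinds of motif. CRE-type matches lay at -66 and -129 in Fos, -60 in Fosb, -45 in Jun, -106 in Junb and -41 in Mafk. They also lay near -29 in the window of Maff start 2, and at -45 and -122 in that of Maff start 3.

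Signals are given as deposited, on the log2 scale after robust multi-array averaging (RMA), which summarizes the probes of a probeset, so that a difference of 1 is a 2-fold change and the levels of 2 genes are not compared with each other. The cells carried the transcripts of pigment cells. Of 7 pigment cell markers 6 were measured, with mean log2 signals from 10.4 (Mitf) to 13.2 (Pmel), whereas 11 of the 14 markers of leukocytes, fibroblasts and epithelial cells were below the median probeset, the exceptions being Csf1r (8.13), Col1a2 (7.33) and Krt5 (7.08). Mitf averaged 10.97 in the control arrays, 9.55 with Lipofectamine, 9.51 after heat shock and 11.27 with benzyl alcohol. The control arrays did not form a single group. The means of arrays 1 and 3 and of arrays 2, 4 and 5 were 2-fold or more apart at 440 probesets, while the 9 other ways of setting 2 control arrays apart gave 0 to 162. The ratio of 3′ to 5′ probesets of Gapdh, which reflects RNA quality, did not separate these arrays, being -0.14 and -0.08 in arrays 1 and 3 and -0.12 to -0.03 in the others on the log2 scale. It was higher in all 3 heat shock arrays (0.009, 0.043 and 0.13) than in any control array, and in benzyl alcohol array 3 (0.070) than in arrays 1 and 2 of that group (-0.056 and -0.082), while the Lipofectamine arrays (-0.10 to -0.059) lay within the control range. The same ratio of Actb was 0.39 in heat shock array 1 and -0.070 to 0.15 in the other 13 arrays. The part of RNA quality in the heat shock differences and in the signals of benzyl alcohol array 3 was not tested. Benzyl alcohol array 3 was 2-fold or more from the mean of the other 2 arrays of its group at 79 probesets, against 17 for array 1 and 62 for array 2. Since several of the factors were among the probesets concerned, the differences of Fos, Jun, Junb, Jund and Mafk that rest on them, and the main changes in the gene lists, are also given against either set of control arrays. What separated these arrays was not tested, and as the arrays to leave out were chosen with their values known, the p-values without them are a description of stability rather than independent evidence.

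**Figure D2:**
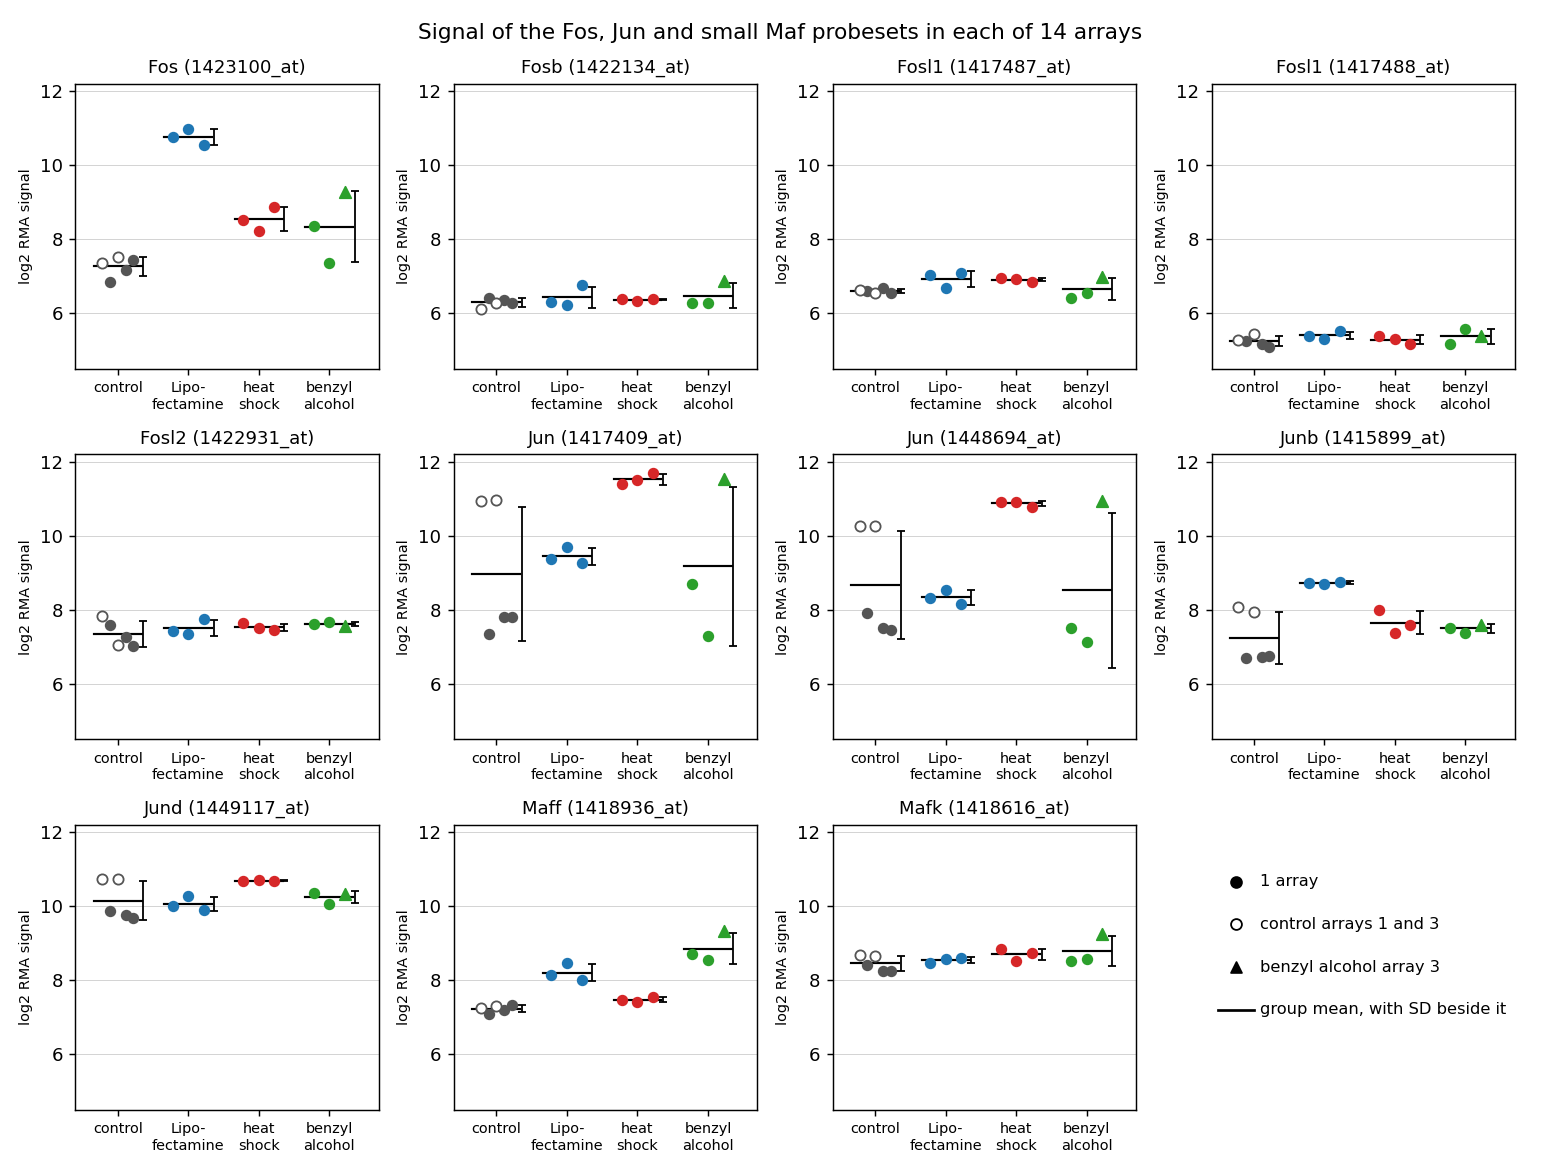
Deposited log2 RMA signal of the 11 probesets in each of the 14 arrays. Each point is 1 array, lines are group means and bars beside them SD (control n = 5, other groups n = 3), open circles are control arrays 1 and 3 and the triangle is benzyl alcohol array 3. Fos with Lipofectamine (10.55 to 10.98) and Maff with benzyl alcohol (8.54 to 9.32) lay above all control arrays, while the Jun control arrays split into a pair near those of heat shock and 3 arrays far below.

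Lipofectamine-treated cells showed a large rise of Fos and smaller rises of Junb and Maff. After heat shock Fos and, less securely, Jun were higher than in the control, and in the benzyl alcohol arm Maff was. Against the control, 3 of the 11 probesets passed with Lipofectamine, 3 higher and 0 lower, where 4.88% of all probesets passed, 1.78% higher and 3.10% lower. With heat shock 2 passed, both higher, where 5.96% of all probesets passed, 1.05% higher and 4.91% lower. With benzyl alcohol 1 passed, where the share was 1.39%, with 0.689% higher and 0.698% lower. Passing here means a Benjamini-Hochberg adjusted p under 0.05 in limma over all 22626 probesets, and the 3 comparisons use the same control arrays. In 3 of the 11 probesets all Lipofectamine arrays exceeded all control arrays (3.69% of all probesets), in 5 all heat shock arrays did (7.58%) and in 1 all benzyl alcohol arrays did (3.17%).

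**Figure D3:**
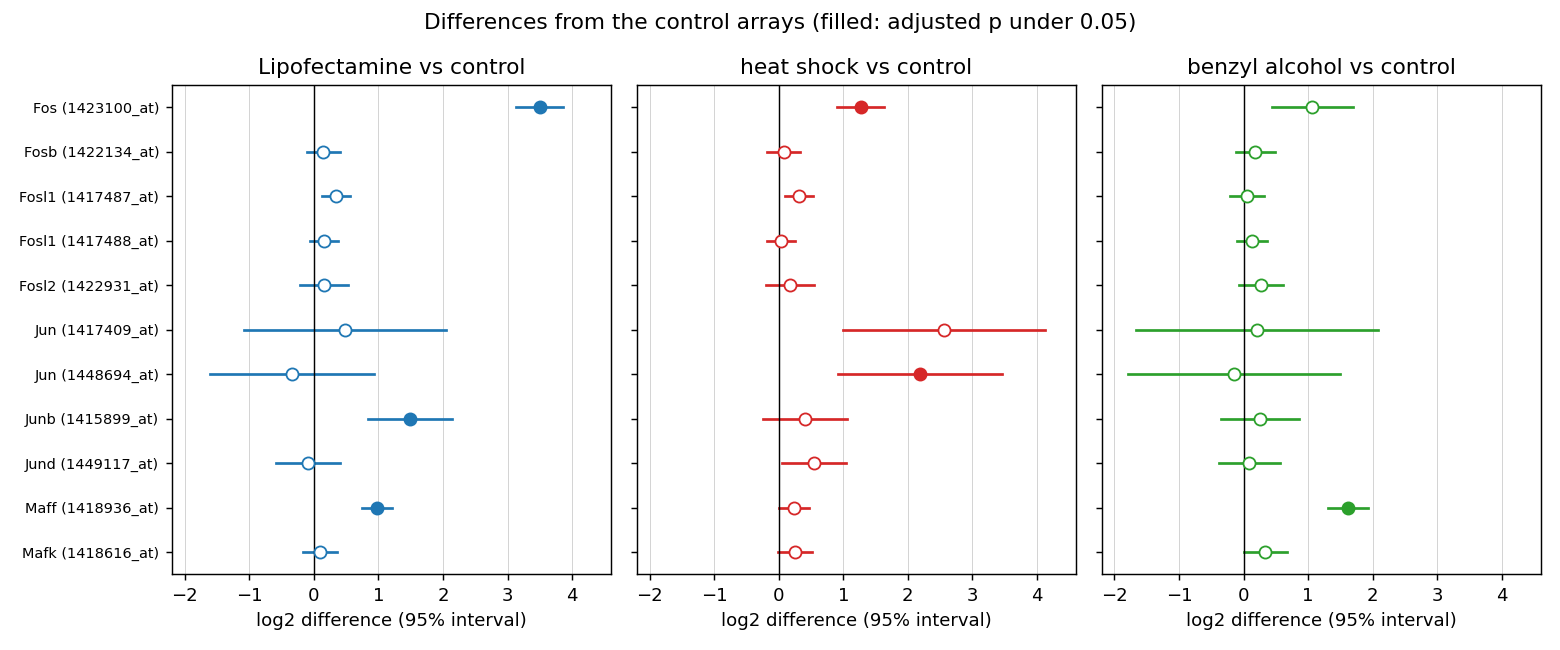
Difference from the control mean for each of the 11 probesets in the 3 treated groups. The x axis is the log2 difference, bars are the 95% interval of the limma fit, and filled points passed at an adjusted p under 0.05. Fos and Junb stand out with Lipofectamine (3.50 and 1.49) and Maff with benzyl alcohol (1.62), and the intervals of Jun are the widest.

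Fos (chromosome 12, 85473890 to 85477274, GRCm38.p6; probeset 1423100_at) encodes the founding member of its family, whose transcription through SRF, ternary complex factors and CREB answers serum and MAP kinase signals. Its log2 signal was 7.36, 6.85, 7.52, 7.16 and 7.44 in control arrays 1 to 5. It was 10.76, 10.98 and 10.55 with Lipofectamine and 8.51, 8.22 and 8.87 after heat shock. With benzyl alcohol the values were 8.35, 7.37 and 9.28. The Lipofectamine and heat shock arrays lay above the control range and apart from each other, whereas benzyl alcohol array 2 fell inside the control range. Fos rose by 3.50 with Lipofectamine on the log2 scale (SE of 0.169, adjusted p = 1.4e-07), an 11.3-fold increase with a 95% interval of 8.78 to 14.5, and ranked 1st of the 22626 probesets by difference. After heat shock it was 1.27 higher than in the control (SE 0.169, adjusted p = 0.00136), or 2.41-fold, at rank 52. The direct comparison of the treatments gave a signal 2.23 higher with Lipofectamine than after heat shock (SE 0.188, adjusted p = 1.96e-05). These 3 calls held under all 23 alternative settings, including the fits without control arrays 1 and 3 (3.61 with Lipofectamine and 1.38 with heat shock) or without control arrays 2, 4 and 5 (3.33 and 1.10). With benzyl alcohol Fos was 1.07 above the control on the log2 scale but did not pass (SE 0.296, adjusted p = 0.0937). It passed when array 2 was left out (1.55, adjusted p = 0.00378). Without benzyl alcohol array 3 the difference was 0.59, and with control arrays 1 and 3 left out as well it was 0.71 (adjusted p = 0.238). The difference of benzyl alcohol from Lipofectamine was -2.43 (adjusted p = 6.52e-04), and the difference from heat shock, -0.20 with an interval of -0.90 to 0.50, was not resolved. The group means therefore ranked Lipofectamine, heat shock, benzyl alcohol and control. Benzyl alcohol was not separated from heat shock, nor from the control at the adjusted threshold. For benzyl alcohol and control the 95% interval of the difference, 0.44 to 1.70, lay above 0 although the adjusted p missed the threshold.

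The other Fos family genes moved little. Fosb (chromosome 7, 19302696 to 19310118; 1422134_at), an immediate early gene like Fos, measured 6.11 to 6.41 in the control arrays, a range exceeded by Lipofectamine array 3 (6.76) and benzyl alcohol array 3 (6.86) and by no other array. The Fosb difference from the control was 0.15 with Lipofectamine (95% interval -0.11 to 0.40), 0.08 after heat shock and 0.18 with benzyl alcohol, with adjusted p-values of 0.61 to 0.726. Fosl1 (chromosome 19, 5447698 to 5455938), which encodes FRA-1 and is itself a known AP-1 target, was read by 2 probesets. On 1417487_at the control arrays measured 6.54 to 6.69, and the heat shock arrays, at 6.95, 6.93 and 6.85, were all above them. Among the Lipofectamine arrays (7.03, 6.68 and 7.09) 1 fell in the control range. The differences of 0.34 with Lipofectamine and 0.31 with heat shock did not pass (adjusted p = 0.0751 and 0.0848), and on 1417488_at, with control values of 5.09 to 5.44, they were 0.16 and 0.04. Fosl2 (chromosome 5, 32136472 to 32157840; 1422931_at), which encodes FRA-2, ranged from 7.02 to 7.83 in the control arrays and from 7.33 to 7.74 in the treated arrays, with differences of 0.15 for Lipofectamine, 0.18 for heat shock and 0.27 for benzyl alcohol, all short of the threshold. The mean signals of Fosb and of both Fosl1 probesets were below the median probeset. Detection calls were not used here, and whether these transcripts were above background is unknown.

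Jun (chromosome 4, 95049036 to 95052222), whose protein binds the CRE-type site in its own promoter and is activated by JNK, differed between control arrays by more than the mean difference of any treatment from them. On 1417409_at the control arrays measured 10.93, 7.35, 10.95, 7.80 and 7.79 in order. The Lipofectamine arrays measured 9.36, 9.70 and 9.26 and the heat shock arrays 11.38, 11.50 and 11.69. The benzyl alcohol arrays measured 8.69, 7.30 and 11.52. On 1448694_at the control arrays again fell into 2 sets, at 10.27 and 10.26 for arrays 1 and 3 and at 7.90, 7.50 and 7.44 for arrays 2, 4 and 5. The Lipofectamine arrays were at 8.32, 8.53 and 8.14, between the control sets, and the heat shock arrays at 10.91, 10.91 and 10.78, above both. The benzyl alcohol arrays were at 7.51, 7.14 and 10.93 on this probeset, so that array 3 was at the level of heat shock and the other 2 at or below that of control arrays 2, 4 and 5. The mean of control arrays 1 and 3 exceeded that of arrays 2, 4 and 5 by 3.29 and 2.65 on the log2 scale.

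After heat shock Jun was 2.56 (SE 0.728, adjusted p = 0.0553) and 2.19 (SE 0.589, adjusted p = 0.0446) above the control mean on the 2 probesets, at ranks 16 and 19 of the 22626 by difference, so that 1 of them passed. That call was lost under 15 of 22 alternative settings, among them the fits without control array 2, 4 or 5, without 1 of the heat shock or Lipofectamine arrays, and with all 14 arrays (adjusted p = 0.103). The direction was the same against either set of control arrays. Heat shock exceeded control arrays 2, 4 and 5 by 3.88 and 3.25 and control arrays 1 and 3 by 0.59 and 0.60 on the log2 scale. With Lipofectamine the mean differences of Jun were 0.48 and -0.34, with adjusted p-values of 0.829 and 0.855, and the direction depended on the control arrays. Jun was higher than in control arrays 2, 4 and 5, by 1.79 (adjusted p = 1.31e-07) and 0.72 (adjusted p = 7.17e-04), and lower than in control arrays 1 and 3, by -1.498 (adjusted p = 2.63e-05) and -1.93 (adjusted p = 3.91e-07). Comparing the treatments directly needs no control array for the difference itself, and Jun was lower with Lipofectamine than after heat shock by -2.08 (adjusted p = 0.163) and -2.54 (adjusted p = 0.039), with no overlap of the arrays. The spread of the control arrays enters these p-values. Fitted on the 2 groups alone, the first probeset passed as well (adjusted p = 6.6e-08), and the second was lost under 8 of 22 settings, among them each fit without 1 of the heat shock or Lipofectamine arrays. With benzyl alcohol the differences from the control were 0.21 and -0.15, with 95% intervals of -1.66 to 2.08 and -1.79 to 1.498. The differences from heat shock were -2.35 (adjusted p = 0.17) and -2.34 (adjusted p = 0.117), and without benzyl alcohol array 3 they were -3.53 (adjusted p = 0.0411) and -3.54 (adjusted p = 0.0144).

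**Figure D4:**
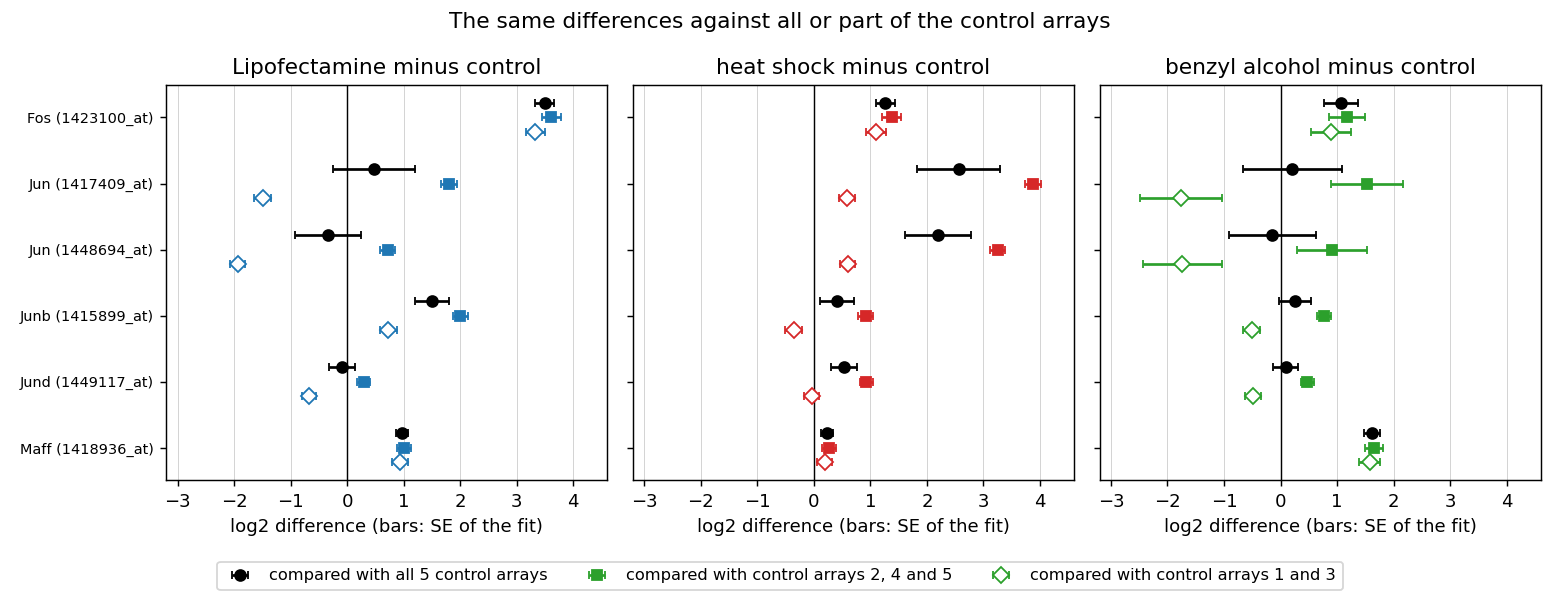
Differences of 6 probesets from all 5 control arrays (circles), from control arrays 2, 4 and 5 (squares) and from control arrays 1 and 3 (diamonds). The x axis is the log2 difference and bars are the SE of the fit. The marks of Fos and Maff lie close together in each panel, whereas with Lipofectamine the marks of Jun run from 1.79 to -1.498 and from 0.72 to -1.93.

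Junb (chromosome 8, 84976909 to 84978748; 1415899_at), whose protein is often a weaker activator than JUN and restrains its growth-promoting targets, was highest with Lipofectamine. Its log2 signal was 8.73, 8.70 and 8.76 there, and 8.08, 6.69, 7.93, 6.73 and 6.76 in control arrays 1 to 5. It was 7.98, 7.37 and 7.58 after heat shock and 7.50, 7.38 and 7.60 with benzyl alcohol. All 3 Lipofectamine arrays exceeded every other array of the series, and control arrays 1 and 3 were again the high ones, by 1.28 over the other controls. Junb rose by 1.49 with Lipofectamine (SE 0.301, adjusted p = 0.0141), or 2.81-fold, with a 95% interval of 1.79 to 4.41, and ranked 36th by difference. The rise passed against either set of control arrays, at 2.003 and 0.73 on the log2 scale, and was lost when Lipofectamine array 1 (adjusted p = 0.0714) or array 3 (adjusted p = 0.0647) was left out. After heat shock Junb was 0.41 above the control mean (adjusted p = 0.437), with 0.92 against control arrays 2, 4 and 5 (adjusted p = 5.54e-05) and -0.36 against arrays 1 and 3 (adjusted p = 0.218). Lipofectamine exceeded heat shock by 1.08 without passing (adjusted p = 0.0808), and the difference passed under 7 alternative settings, among them the fit of these 2 groups alone (adjusted p = 7.48e-05). Junb with benzyl alcohol differed from that with Lipofectamine by -1.24 (adjusted p = 0.019), a call lost without benzyl alcohol array 1 or 2 or Lipofectamine array 1 or 3. It was 0.26 above the control (adjusted p = 0.778), with 0.77 against control arrays 2, 4 and 5 (adjusted p = 0.0036) and -0.51 against arrays 1 and 3 (adjusted p = 0.0384).

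Jund (chromosome 8, 70697739 to 70700616; 1449117_at), the constitutively expressed Jun gene, passed in none of the 6 comparisons (the unadjusted p was under 0.05 for heat shock against control and against Lipofectamine). Control arrays 1 and 3 measured 10.73 each, and arrays 2, 4 and 5 measured 9.88, 9.75 and 9.67. The heat shock arrays were all at 10.69, the Lipofectamine arrays at 10.01, 10.26 and 9.89 and the benzyl alcohol arrays at 10.36, 10.05 and 10.32. Heat shock thus lay at the level of 1 set of control arrays and 0.93 above the other (adjusted p = 1.24e-05 against arrays 2, 4 and 5, with -0.04 against arrays 1 and 3). The difference against all controls was 0.54 (adjusted p = 0.183), with a 95% interval of 0.04 to 1.04. The Lipofectamine difference, -0.10 over all controls, was 0.29 and -0.68 against the 2 sets, of which the second passed (adjusted p = 0.00692). With benzyl alcohol Jund was 0.09 above all controls (adjusted p = 0.917), with 0.48 against arrays 2, 4 and 5 (adjusted p = 0.0357) and -0.49 against arrays 1 and 3 (adjusted p = 0.0247).

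Maff (chromosome 15, 79346621 to 79359078; 1418936_at), a stress- and cytokine-inducible small Maf, varied little among the control arrays. They measured 7.25, 7.10, 7.30, 7.19 and 7.32, and the 2 sets of control arrays differed by 0.08. The benzyl alcohol arrays measured 8.70, 8.54 and 9.32, the Lipofectamine arrays 8.14, 8.46 and 8.02, and the heat shock arrays 7.47, 7.40 and 7.54. The 4 groups did not overlap and ranked benzyl alcohol, Lipofectamine, heat shock and control. With benzyl alcohol Maff rose by 1.62 (SE 0.147, adjusted p = 2.48e-05), or 3.08-fold, with a 95% interval of 2.48 to 3.82, at rank 15 by difference. With Lipofectamine it rose by 0.98 (SE 0.107, adjusted p = 4.45e-04), or 1.97-fold, at rank 129. The heat shock difference of 0.24 did not pass (SE 0.107, adjusted p = 0.206), although all 3 arrays lay above the control range. Maff was 0.74 higher with Lipofectamine than after heat shock (adjusted p = 0.00383) and 1.38 higher with benzyl alcohol than after heat shock (adjusted p = 3.88e-04). Each of these 4 calls held under all settings tried. Benzyl alcohol exceeded Lipofectamine by 0.65 (adjusted p = 0.0185), a call lost under 6 settings, among them the fit without benzyl alcohol array 3 (0.41, adjusted p = 0.077). Without that array and control arrays 1 and 3, Maff remained 1.42 above the control with benzyl alcohol (adjusted p = 4.74e-05).

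Mafk (chromosome 5, 139791536 to 139802653; 1418616_at), the small Maf present in most tissues, passed in none of the 6 comparisons (1 of them had an unadjusted p under 0.05, benzyl alcohol against control). The control arrays measured 8.24 to 8.67, the Lipofectamine arrays 8.47 to 8.60 and the heat shock arrays 8.53 to 8.84, while benzyl alcohol array 3 stood at 9.25 and the other benzyl alcohol arrays at 8.52 and 8.58. The benzyl alcohol difference was 0.33 (95% interval 0.00 to 0.67, adjusted p = 0.37). Without benzyl alcohol array 3 it was 0.10, and with control arrays 1 and 3 left out as well it was 0.25 (adjusted p = 0.498). The heat shock difference of 0.25 (adjusted p = 0.25) was 0.39 against control arrays 2, 4 and 5 (adjusted p = 0.0156) and 0.03 against arrays 1 and 3 (adjusted p = 0.92).

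Benzyl alcohol array 3 was thus high at several of the factors together. Its signal exceeded the mean of the other 2 benzyl alcohol arrays by 3.53 and 3.61 at the Jun probesets, the 3rd and 2nd highest of 22626 gaps, and by 1.43 at Fos (rank 28). The gaps were 0.70 at Maff and Mafk, 0.58 at Fosb and 0.51 at the brighter Fosl1 probeset, and 0.16, 0.12 and -0.07 at Junb, Jund and Fosl2. Array 2 was low against the other 2, with gaps of -2.81 and -2.08 at the Jun probesets (ranks 22626 and 22621). Its gap at Fos was -1.45 (rank 22606). For array 1 the Jun gaps were -0.72 and -1.52 and the Fos gap was 0.02. Array 3 is part of the mean that arrays 1 and 2 were set against. Egr1, an immediate early gene outside the list, measured 7.64, 7.09 and 10.18 in the 3 benzyl alcohol arrays. The Maff rise was the single call against the control in this arm and was present in each array.

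Genes whose signals followed the factors most closely over the 14 arrays were taken as the 5 with the highest Pearson correlation to each, as a description, since the arrays share groups and the same split of the controls. For Fos these were Nr4a1 (r = 0.93), Egr1 (0.93), Ddit4l (0.92), Hivep1 (0.91) and Psma4 (0.91), of which the first pair are immediate early genes. Egr1 measured 10.25, 10.21 and 9.99 with Lipofectamine against 6.93 to 7.32 in the control arrays, and Nr4a1 measured 11.70, 11.79 and 11.70 against 9.32 to 10.21. For Jun the first was Atf3 (0.96), a stress-induced partner of Jun, followed by Siah2, Ddit4, Odr4 and Sectm1a (0.92 to 0.95). Atf3 showed the same split of the controls as Jun, with 11.27 and 11.22 in arrays 1 and 3 and 6.97, 6.72 and 6.97 in the others. It measured 11.54, 11.27 and 12.04 after heat shock, 8.60, 8.70 and 8.43 with Lipofectamine and 8.76, 7.58 and 10.67 with benzyl alcohol. For Junb the genes were Plaur (0.94), which encodes the urokinase receptor, Procr, Adh7, Rit1 and Tubb2a (0.92 to 0.93). For Maff they were S100a10 (0.94), Trmt10a, Rab21, Slc35e4 and Fbxo33 (0.89 to 0.92), and for Fosb, Mesp2, Marveld2, Msl3l2, Slc27a2 and Dnajb7 (0.81 to 0.84). The Fosb signal was below the median probeset and moved little, so its correlations rest on small differences between arrays.

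Genes that act with, upstream and downstream of the factors were read in 6 lists, each gene by its brightest probeset, where 5.02% of 12393 genes passed with Lipofectamine, 5.04% with heat shock and 1.42% with benzyl alcohol. These shares depended on the control arrays. Without control arrays 1 and 3, 8.09% of all genes were higher and 10.9% lower with Lipofectamine, 7.89% and 12.7% with heat shock, and 1.29% and 1.36% with benzyl alcohol. Without arrays 2, 4 and 5 the shares were 1.32% and 3.45%, 0.71% and 2.85%, and 5.13% and 8.31%, and each list count below from these fits is to be read against them. Among 16 measured partners in basic leucine zipper dimers, 1 rose with Lipofectamine, Bach1, a repressor that pairs with small Mafs (0.86, adjusted p = 0.0166). After heat shock 1 fell, Nfe2l2, the gene of NRF2 (-0.55, adjusted p = 0.0486). With benzyl alcohol 1 rose, Bach2 (0.71, adjusted p = 0.00827). Atf3 was 2.99 above the control mean after heat shock without passing (adjusted p = 0.0834), and its control arrays differed by 4.36 between the 2 sets. Without control arrays 1 and 3 the list gave 6 higher and 1 lower with Lipofectamine, 5 higher and 1 lower with heat shock and 2 higher with benzyl alcohol. Without arrays 2, 4 and 5 it gave 0 higher and 3 lower with Lipofectamine, so that the call of Bach1 was lost, 0 higher and 3 lower (Nfe2l2 among them) with heat shock, and 1 higher (Bach2) and 5 lower with benzyl alcohol. The list medians, 0.07 with Lipofectamine, 0.09 with heat shock and -0.03 with benzyl alcohol, were near those of all genes (-0.02, 0.04 and 0.02).

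Among 13 measured factors that act at the Fos and Jun promoters, 4 fell after heat shock, where 0.888% of all genes rose and 4.15% fell. These were the ternary complex factors Elk3 (-0.99, adjusted p = 0.0324) and Elk4 (-0.46, adjusted p = 0.0405), the SRF coactivator Mrtfa (-0.43, adjusted p = 0.0411) and Mef2c (-0.71, adjusted p = 0.0477). The count was 2 higher and 5 lower without control arrays 1 and 3, where 7.89% and 12.7% of all genes were, and 0 higher and 1 lower (Mrtfa) without arrays 2, 4 and 5, where 0.71% and 2.85% were. With Lipofectamine 1 rose, Creb1 (0.51, adjusted p = 0.0381), a call lost without control arrays 2, 4 and 5, and with benzyl alcohol 1 rose, Sp1 (0.93, adjusted p = 0.00121). Among 13 measured MAP kinase cascade genes, Map2k3, an activator of p38, rose with Lipofectamine (0.52, adjusted p = 0.0212) and Rps6ka3, which encodes the kinase RSK2, fell (-0.88, adjusted p = 0.00241), while 0 passed with heat shock or benzyl alcohol in limma. Both calls held against either set of control arrays, and without arrays 1 and 3 the counts were 2 higher and 3 lower with Lipofectamine and 0 higher and 3 lower with heat shock. Among 9 measured genes of Fos and Jun mRNA or protein turnover, Zfp36, which encodes the decay factor tristetraprolin, rose with Lipofectamine (1.17, adjusted p = 0.00768). After heat shock its relative Zfp36l1 rose (1.05, adjusted p = 0.00354) and Fbxw7, the substrate receptor of a ubiquitin ligase for JUN, fell (-0.59, adjusted p = 0.0474). With benzyl alcohol 0 passed. Zfp36 and Zfp36l1 passed against either set of control arrays, and Fbxw7 was lost without arrays 2, 4 and 5.

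Of 30 measured AP-1 target genes, 5 rose with Lipofectamine and 0 fell, where 1.69% of all genes rose and 3.33% fell. The risers included the chemokine gene Cxcl1 (2.41, adjusted p = 0.00966), the metallothionein genes Mt1 (0.85, adjusted p = 2.93e-04) and Mt2 (1.13, adjusted p = 0.00278), and Plaur (0.97, adjusted p = 0.00691). After heat shock Mt1 alone passed (0.32, adjusted p = 0.0473), and with benzyl alcohol Hbegf alone, the gene of an EGF receptor ligand (0.89, adjusted p = 0.00331), where 0.726% of all genes rose and 0.694% fell. Without control arrays 1 and 3 the counts were 9 higher and 0 lower with Lipofectamine, 8 higher and 2 lower with heat shock, and 2 higher and 0 lower with benzyl alcohol. Without arrays 2, 4 and 5 they were 5 higher and 0 lower with Lipofectamine (Lif lost and Ccnd1 gained), 0 higher and 1 lower (Cxcl1) with heat shock, where Mt1 was lost, and 2 higher and 4 lower with benzyl alcohol. The list medians were 0.12 with Lipofectamine, 0.17 with heat shock and 0.09 with benzyl alcohol. Metallothionein genes answer metals and glucocorticoids as well as AP-1, and what raised them here was not tested.

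The targets shared by NRF2 and small Mafs were the list with most calls with Lipofectamine. In that arm 9 of 21 measured genes rose and 0 fell, where 1.69% of all genes rose and 3.33% fell. The median difference was 1.00 on the log2 scale against -0.02 over all genes. The genes that rose included Gsr, the glutathione reductase gene (1.24, adjusted p = 0.00244), Gclc, which encodes the catalytic subunit of glutamate-cysteine ligase (0.96, adjusted p = 0.00781), Me1 (0.75, adjusted p = 0.0097) and Gstm1 (1.12, adjusted p = 0.0123). After heat shock 0 of 21 passed in limma, with a median of 0.48, and with benzyl alcohol 0 of 21, with a median of -0.24. These genes also separated the 2 sets of control arrays, and the list medians moved with them. Without control arrays 1 and 3 the medians were 1.35 with Lipofectamine, 0.90 with heat shock and 0.11 with benzyl alcohol. Without arrays 2, 4 and 5 they were 0.39, -0.12 and -0.97 in the same order. Hmox1, on which the sets differed by 3.77, was 2.37 above the control mean with Lipofectamine without passing (adjusted p = 0.126). Without control arrays 1 and 3 the list gave 18 higher and 1 lower with Lipofectamine, 14 higher and 1 lower with heat shock and 4 higher with benzyl alcohol, where 8.09% and 10.9%, 7.89% and 12.7%, and 1.29% and 1.36% of all genes were. Without control arrays 2, 4 and 5 it gave 9 higher with Lipofectamine, 1 higher and 1 lower with heat shock, and 1 higher and 16 lower with benzyl alcohol, the last where 5.13% of all genes were higher and 8.31% lower. The benzyl alcohol arrays measured 16 of the 21 genes lower than the Lipofectamine arrays did and 0 higher, with a median difference of -1.36. Of all genes, 4.82% were lower and 7.12% higher in that comparison. These arms also differed in length of treatment and, by the sample protocols, in length of recovery. Maff was highest in the benzyl alcohol arrays, and whether its level bears on these genes was not tested.

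**Figure D5:**
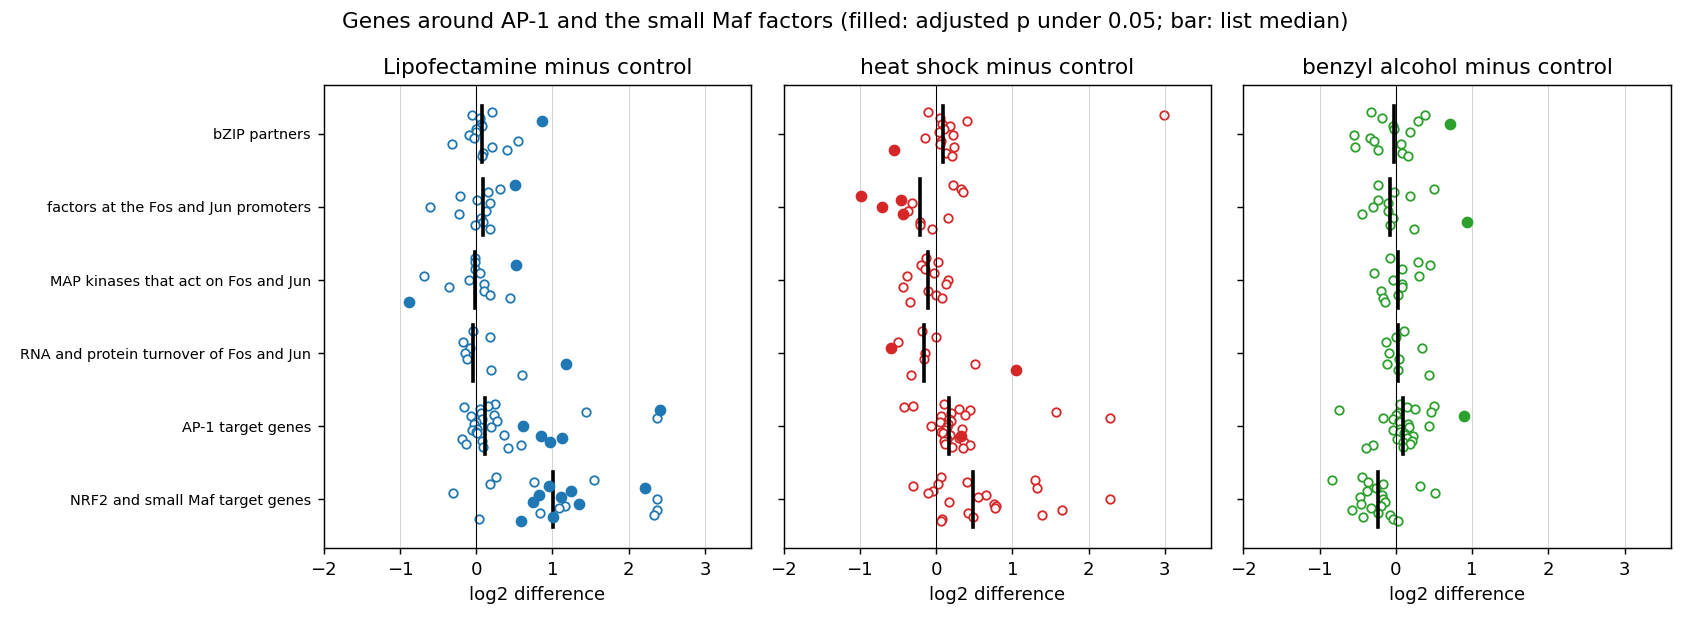
Differences from the control for the genes of 6 lists around the factors, by treatment. Each point is 1 gene read by its brightest probeset, the x axis is the log2 difference, filled points passed at an adjusted p under 0.05 and the black bar is the list median. The NRF2 and small Maf targets have medians of 1.00, 0.48 and -0.24 with Lipofectamine, heat shock and benzyl alcohol, and the medians of the other 5 lists lie between -0.22 and 0.17.

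Taking all 11 probesets in the direct comparisons, 2 were higher and 1 lower with Lipofectamine than after heat shock, where 5.72% of all probesets passed, 4.42% higher and 1.30% lower. These were Fos and Maff, and the second Jun probeset. Benzyl alcohol gave 1 higher (Maff) and 2 lower (Fos and Junb) than Lipofectamine, where 11.9% passed, 6.71% higher and 5.22% lower, and 1 higher (Maff) and 0 lower than heat shock, where 7.22% passed, 5.44% higher and 1.78% lower. Without regard to the fit, all Lipofectamine arrays exceeded all heat shock arrays at 3 of the 11 probesets and lay below them at 3 (Jun at both probesets, and Jund), where 15.0% and 15.3% of all probesets did.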

How the data were processed

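Total RNA of 14 cultures was hybridized to Affymetrix arrays, read with GCOS 1.2 and processed by the authors with RMA (version not given in the sources used here), and the deposited values are log2 signals, 1 per probeset and array. RMA brings the arrays to a common distribution (medians 7.03 to 7.12) and keeps no detection calls or depth, so precision is limited by the number of arrays. From these values limma 3.58.1 in R 4.3.3 was fitted to 22626 probesets, after 64 control probesets were left out and with no filter on signal. The benzyl alcohol arrays were kept out of the fit of the other 3 comparisons (11 arrays), following the study's own choice of groups, and the 3 comparisons with benzyl alcohol used all 14. P-values were adjusted by Benjamini-Hochberg over all probesets at 0.05. The study's threshold, an F-test p and pairwise p under 0.001, was an alternative, as were other sets of arrays, the replicate number as a block, array weights, a variance trend, a filter on dim probesets, renewed normalization and the mean of a gene's probesets. Probesets were named by the platform annotation (20380 carried 1 symbol), a list gene was represented by its brightest probeset over all arrays, and up to 4 genes that passed were named per list and comparison by smallest p. Atf3, Hmox1 and Egr1 were named further because a result turned on them. The members and lists were chosen with earlier results of these data known. The code was tested on simulated data. Promoter windows come from RefSeq (GRCm38.p6). The groups came from the sample labels, which call the arrays biological replicates. Fits without control arrays 1 and 3 and benzyl alcohol array 3 together, and list counts by control set, were added after seeing the data.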

Additional observations from a re-analysis of the deposited data

How the results depend on the processing

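Every test rests on 3 arrays per treated group, without detection calls, so small differences of the dim probesets (Fosb and Fosl1) cannot be separated from background, and the filter on dim probesets leaves these genes without a value. No block for a scan or hybridization batch was run, since none is given in the sources used here. Over 1587 differences of member probesets under the alternatives, 1416 kept their direction and their side of the threshold. With the direction kept, 36 lost a call and 67 gained one. The other 68 changed direction and were counted apart from these gains and losses. Some of them passed in the new direction, such as Jun at 1417409_at with Lipofectamine against control arrays 1 and 3. The counts of called member probesets were 3 for Lipofectamine, 2 for heat shock and 1 for benzyl alcohol against control, 3 for Lipofectamine against heat shock, 3 for benzyl alcohol against Lipofectamine and 1 for benzyl alcohol against heat shock. The causes of the changes below were not tested.

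Without control arrays 1 and 3 these counts, in the same order, were 5, 6, 3, 6, 3 and 4. Jun at 1448694_at then turned to 0.72 with Lipofectamine and 0.91 with benzyl alcohol against control, and Jund to 0.29 with Lipofectamine. Without control arrays 2, 4 and 5 the counts were 6, 3, 3, 6, 3 and 4. Against the control, Jun at 1417409_at then turned to -1.498 with Lipofectamine and -1.77 with benzyl alcohol, Mafk to -0.12 with Lipofectamine, Junb to -0.36 with heat shock and -0.51 with benzyl alcohol, Jund to -0.039 with heat shock and -0.49 with benzyl alcohol, and Fosl1 at 1417488_at to -0.069 with heat shock. Calls over all probesets changed too, from 1104 to 4248 for Lipofectamine and from 1349 to 4930 for heat shock against control without control arrays 1 and 3. Without control arrays 1 and 3 and benzyl alcohol array 3, a choice added after seeing the data, the benzyl alcohol counts were 2 against control, 5 against Lipofectamine and 5 against heat shock. Fosb was then -0.074 against control, -0.16 against Lipofectamine and -0.088 against heat shock, Fosl1 at 1417487_at was -0.12 against control, Jun at 1448694_at was -1.01 against Lipofectamine (adjusted p = 4.4e-04), and Mafk was -0.15 against heat shock.

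With array weights, whose estimation stopped before full convergence, the counts were 5, 7, 3, 7, 6 and 1, while the calls over all 22626 probesets rose from 1104 to 8304, 1349 to 5889, 314 to 953, 1294 to 11009, 2699 to 8829 and 1633 to 4293 in the same order. Jun at 1448694_at was then 0.12 with Lipofectamine and 1.29 with benzyl alcohol against control, Jund 0.030 with Lipofectamine, Fosb -0.051 between Lipofectamine and heat shock, Jun at 1417409_at 0.74 between benzyl alcohol and Lipofectamine, and Fos 0.16 between benzyl alcohol and heat shock. Fitting only the 2 groups compared gave 6 calls for Lipofectamine and 3 for benzyl alcohol against heat shock. For heat shock against control the count was 1 with all 14 arrays, with arrays centred on their medians, with the mean of a gene's probesets and under the study's threshold, which also gave 1 for benzyl alcohol against Lipofectamine. Quantile normalization applied again gave -0.025 for Fosl1 at 1417488_at in heat shock against control and -0.0035 for Mafk in benzyl alcohol against heat shock.

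The replicate numbers did not pair the samples. Of 18 same-numbered pairs of arrays from different groups, 3 had deviations that correlated above 0.1, in a range of -0.56 to 0.44. Pairs with different numbers reached further, from -0.65 (Lipofectamine array 3 with benzyl alcohol array 1) to 0.63 (Lipofectamine array 2 with benzyl alcohol array 1). Arrays of different groups thus shared some variation that the numbers do not follow, and its source was not tested. With the replicate number as a block the counts were 3, 1, 1, 4, 3 and 1, and the calls over all probesets went from 1104 to 186 and from 1349 to 192 for Lipofectamine and heat shock against control. Under the block Jun at 1417409_at was -0.30 with Lipofectamine and -0.57 with benzyl alcohol, Mafk -0.037 with Lipofectamine, Fosl1 at 1417488_at -0.036 with heat shock, and Junb -0.071 and Jund -0.20 with benzyl alcohol, all against control.

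With 1 array left out at a time the counts ranged from 2 to 4 for Lipofectamine, 1 to 4 for heat shock and 1 to 2 for benzyl alcohol against control, 2 to 4 for Lipofectamine against heat shock, 1 to 3 for benzyl alcohol against Lipofectamine and 1 to 3 for benzyl alcohol against heat shock. Differences that changed direction in these fits were those of Fosb (-0.017 to 0.25), Jun at 1448694_at (-0.65 to 0.057) and Jund (-0.22 to 0.048) for Lipofectamine against control, and of Fosl1 at 1417488_at (-0.013 to 0.10) for heat shock against control. For Lipofectamine against heat shock they were Fosb (-0.094 to 0.17), Fosl1 at 1417487_at (-0.053 to 0.15) and Fosl2 (-0.15 to 0.057). For benzyl alcohol against control they were Fosb (-0.011 to 0.28), Fosl1 at 1417487_at (-0.11 to 0.18), Jun at 1417409_at (-0.97 to 1.15) and at 1448694_at (-1.35 to 0.55), and Jund (-0.028 to 0.24). Against Lipofectamine they were Fosb (-0.16 to 0.20), Fosl1 at 1417488_at (-0.13 to 0.078), and Jun at 1417409_at (-1.44 to 0.67) and 1448694_at (-1.01 to 0.89). Against heat shock they were Fos (-0.67 to 0.28), Fosb (-0.088 to 0.21), Fosl1 at 1417488_at (-0.014 to 0.20), Junb (-0.29 to 0.016) and Mafk (-0.15 to 0.22).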
